A study of Mus musculus with 6 samples.

Results

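This report describes 25270 CpGs of the mouse neocortex that carried little methylation although they lay in CpG-poor DNA far from CpG islands. They were chosen from 534921 autosomal CpGs with at least 10 reads in all 6 samples, after the reads of both strands were added. A CpG was taken as sparse and distal when 1 to 5 CpGs, itself included, were listed within 250 bp on either side and when it lay over 4000 bp from any CpG with more than 20 listed CpGs in its own window of that size. Of the 247380 sparse distal CpGs, the 25270 (10.2%) with a mean level under 20% over the 3 wild-type (WT) samples were kept and are called low CpGs here. The methylation level is the percent of reads that kept a cytosine after bisulfite treatment. Density counted CpGs listed in any library, so a CpG-rich stretch in which few CpGs were read would also count as sparse.

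The samples were genomic DNA from neocortex at postnatal day 5, 3 labelled WT and 3 labelled Chd8+/-, that is heterozygous for the chromatin remodeller gene Chd8. They were assayed by reduced representation bisulfite sequencing (RRBS), which reads short fragments made by the enzyme MspI at CCGG sites, so only CpGs near such sites are seen. The labels give no strain, sex, allele design or animal for a sample, so the spread between samples of a group may be partly technical. The comparison asks how neocortical DNA methylation differs between WT mice and this model of a CHD8-linked neurodevelopmental disorder.

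In mammalian DNA most CpGs outside islands are methylated by the DNMT enzymes and kept so through cell division. Short stretches of lower methylation away from promoters often lie at enhancers and other sites where transcription factors bind and TET enzymes oxidise methylcytosine. CHD8 is an ATP-dependent remodeller that binds promoters and enhancers of active genes in developing neurons. None of this was measured here: the data hold methylation alone, and no gene or enhancer annotation was used, so "enhancer-like" describes only a level and a CpG density.

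The libraries listed 953724 to 1400708 CpG cytosines with at least 10 reads each. At the low CpGs the median coverage was 56, 56 and 49 reads in WT replicates 1 to 3, and 44, 36 and 39 reads in Chd8+/- replicates 1 to 3. Every Chd8+/- library was therefore shallower there than every WT library. Of the low CpGs, 10 had more than 2798 reads in total over the 6 samples. Replicate 3 of both genotypes stood apart from the other samples on chromosome X, which is not part of the values below.

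Most sparse distal CpGs were highly methylated, and the low CpGs formed a separate small mode at the other end. By the WT mean, 51226 sparse distal CpGs (20.7%) stood at 95% or above and 10233 (4.14%) under 5%, while 4274 (1.73%) lay between 20% and 25%, just beyond the limit. The counts per step of 5 points fell from 10233 at the bottom to 4658 between 15% and 20%, so the limit of 20% cut a shallow valley and not a gap. The WT mean of a low CpG had a median of 7.13%, with quartiles at 1.85% and 13.3%. Strictly unmethylated CpGs were a minority: 4189 (16.6%) had 0% in all 3 WT samples and 2495 (9.87%) had 0% in all 6 samples.

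**Figure D1:**
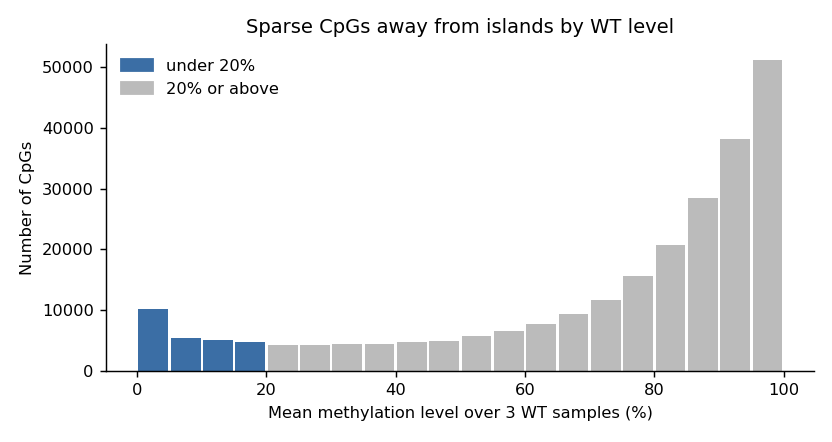
Number of sparse distal CpGs by their mean methylation level over the 3 WT samples in steps of 5 points. Bars in blue are the 25270 CpGs under 20%; the lowest step holds 10233 CpGs and the highest 51226.

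The Chd8+/- samples, whose levels played no part in the choice, also read these CpGs as low. Their mean level over a low CpG had a median of 8.67% and was under 20% at 20013 of them (79.2%). All 3 Chd8+/- samples were under 20% at 14114 low CpGs (55.9%), 2 of them at 6160, 1 at 3577 and none at 1419 (5.62%). The Chd8+/- mean was 50% or above at 250 low CpGs (0.989%) and 80% or above at 3. Single samples often crossed the limit: 17016 low CpGs (67.3%) were under 20% in all 3 WT samples, whose mean had chosen them.

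The 2 strands had similar mean levels, while the strands of a single CpG differed by several points at the median. In the Chd8+/- samples 4491 low CpGs had at least 10 reads on each strand, and their mean level was 10.7% on the forward and 10.9% on the reverse strand. The median gap between the strands of a low CpG was 6.16 points in Chd8+/- and 5.02 points in WT. Both strands were under 20% at 3108 of these (69.2%), and 1 strand was under 20% with the other at 80% or above at 14 (0.312%). In WT the same split between strands was seen at 16 of 5221 (0.306%). Among sparse distal CpGs at 20% or above in WT it was seen at a similar share, 113 of 26655 (0.424%) in Chd8+/- and 119 of 30821 (0.386%) in WT.

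The median SD of a low CpG over 3 samples was 5.29 points in WT and 6.61 points in Chd8+/-, against 3.29 and 4.01 points from binomial sampling of the reads. PCR copies are not independent molecules, so the latter values cover counting error only and leave out any difference between separate libraries. The rule limited the WT levels and with them both WT values. Chd8+/- was also shallower and higher in level, so the genotypes are not compared by these SDs.

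CpGs near a low CpG were low as well, with levels that climbed with distance. The levels of the neighbours are taken here over sparse distal CpGs, whether low or not. At 1 to 10 bp from a low CpG the WT mean of the other sparse distal CpGs was 10.9% ± 0.0350 and the Chd8+/- mean 12.99% ± 0.0749 (SD, n = 3). At 51 to 100 bp they stood at 15.2% and 16.6%, at 251 to 500 bp at 27.3% and 28.4%, and over 1000 to 2000 bp at 50.3% and 51.1%. Around sparse distal CpGs that were at 80% or above in WT, the same neighbours stood at 91.7% and 91.5% at 1 to 10 bp and at 73.4% and 74.1% over 1000 to 2000 bp. Over 2000 to 4000 bp the Chd8+/- mean was still 59.8% around low CpGs and 73.4% around the highly methylated ones, so the profiles had not met. Neighbours this close can lie on the same reads as the CpG that was chosen, so these profiles are descriptions. With all covered CpGs as neighbours, the levels around low CpGs climbed less. The WT mean was then 19.9% at 251 to 500 bp and 45.6% over 2000 to 4000 bp.

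**Figure D2:**
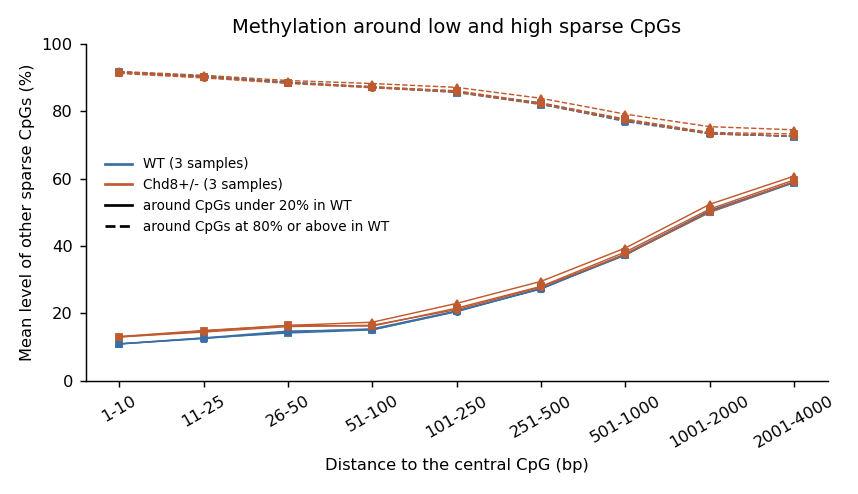
Mean methylation level (%) of other sparse distal CpGs by distance (bp, in classes of rising width) from a CpG under 20% in WT (solid) or at 80% or above in WT (dashed), 1 line per sample. Around low CpGs the WT mean climbs from 10.9% at 1 to 10 bp to 58.9% over 2000 to 4000 bp, and the 6 samples run close together.

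Another covered CpG lay within 100 bp of 16952 low CpGs. The mean of these neighbours in Chd8+/- was under 20% at 11764 of them (69.4%) and at 80% or above at 172 (1.01%). A low CpG beside a highly methylated one was thus rare, and 10 of these 172 low CpGs were at 0% in all 6 samples.

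Low CpGs came in small clusters. With members of a cluster at most 1000 bp from the next, the 25270 low CpGs fell into 14113 clusters, of which 7826 held a single low CpG. The rest, 17444 low CpGs (69.0%), had company, 2829 clusters held 3 or more and 492 held 5 or more. Among all sparse distal CpGs 82.7% had another sparse distal CpG within 1000 bp. That set holds 247380 CpGs against 25270, so the 82.7% is not a baseline for the 69.0%. Whether low CpGs lay closer together than their number alone would give was not tested. Clusters of 3 or more low CpGs spanned a median of 183 bp, and 1657 clusters of any size were longer than 250 bp. The longest reached 2944 bp.

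Larger clusters were less methylated in both genotypes. Single low CpGs had a WT mean of 10.1% ± 0.312 and a Chd8+/- mean of 16.0% ± 1.10 (SD, n = 3). In clusters of 5 or more these means were 4.84% ± 0.159 and 5.98% ± 0.329 (SD, n = 3). The distance between the genotypes went from 5.89 points for single low CpGs to 3.64 points in pairs, 2.61 points in clusters of 3 or 4, and 1.13 points in clusters of 5 or more. A mean in Chd8+/- of 50% or above was found at 2.08% of single low CpGs and 0.0358% of those in clusters of 5 or more. The WT levels chose the members, which lowers WT, and so also set the cluster sizes. CpGs of a cluster can share reads. The trend of level with cluster size and these differences are therefore descriptions.

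**Figure D3:**
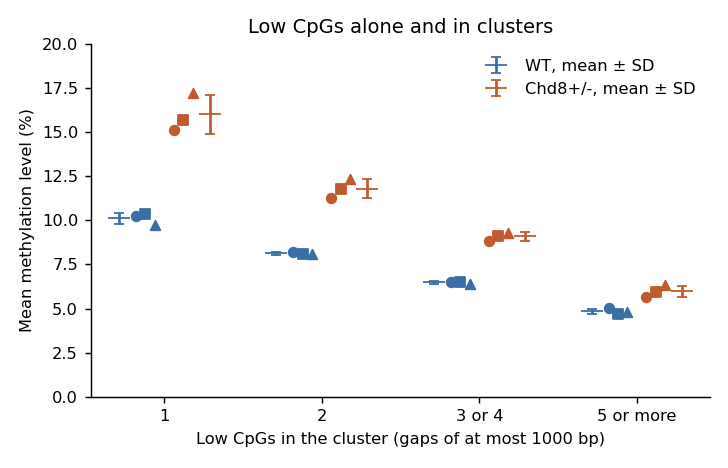
Mean methylation level (%) of low CpGs by the number of low CpGs in their cluster, 1 point per sample (circle, square and triangle for replicates 1, 2 and 3) with the group mean ± SD beside it. The WT mean goes from 10.1% for single low CpGs to 4.84% in clusters of 5 or more, and the Chd8+/- mean from 16.0% to 5.98%.

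The cluster with the most low CpGs lay on chromosome 2 from 115686940 to 115689679 (mm39). Its 15 low CpGs, spread over 2740 bp, averaged 6.11%, 5.66% and 8.66% in WT replicates 1 to 3 and 9.88%, 7.48% and 8.91% in Chd8+/- replicates 1 to 3. The groups overlapped, since WT replicate 3 lay above Chd8+/- replicate 2. The difference of 1.95 points ranged from 1.38 to 2.87 points when each sample was left out in turn. Inside it, the WT means of single low CpGs went from 0% to 18.6% and 1 covered CpG stood just beyond the limit at 20.05%. All 4 covered CpGs within 2000 bp outside it were also low in WT, at 0% to 0.476%, but their density of 7 kept them from being members. Within 10000 bp outside, 11 of 16 covered CpGs were under 20% in WT. The nearest CpG of density over 20 was 203940 bp away.

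A cluster of 14 low CpGs on chromosome 12 from 110451523 to 110452936 was close to fully unmethylated. It stood at 0.487%, 0% and 0.504% in WT replicates 1 to 3 and at 0.560%, 0% and 1.97% in Chd8+/- replicates 1 to 3. The groups overlapped, and the difference of 0.513 points became −0.0503 points without Chd8+/- replicate 3. Bisulfite treatment left 0.316% to 0.348% of cytosines outside CpGs unconverted in these libraries, by the authors' conversion statistics. The WT levels of 0% to 0.504% are of that order. The 1.97% of Chd8+/- replicate 3 is above that share and came mainly from 2 low CpGs, at 13.9% and 11.1%. All 15 covered CpGs within its bounds were under 20% in WT, and no covered CpG lay within 10000 bp outside it.

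On chromosome 7 a cluster of 12 low CpGs from 45349030 to 45350364 had methylated CpGs close to 1 end. It stood at 0%, 0% and 0.766% in WT replicates 1 to 3 and at 2.59%, 1.47% and 0% in Chd8+/- replicates 1 to 3, with overlapping groups. The difference of 1.10 points was 0.482 points without Chd8+/- replicate 1 and 1.78 points without Chd8+/- replicate 3. Of the 7 covered CpGs within 2000 bp outside it, 1 was under 20% and 2 were at 80% or above in WT, with a WT mean of 58.5% against 0.255% inside. Farther out the DNA was low again in places: 38 of the 49 covered CpGs within 10000 bp were under 20% in WT. The nearest CpG of density over 20 was 14143 bp away.

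A cluster of 12 low CpGs on chromosome 17 from 8744336 to 8745364 stood at 4.89%, 0.542% and 2.45% in WT replicates 1 to 3. In Chd8+/- replicates 1 to 3 it stood at 2.20%, 1.30% and 1.38%, all within the range of WT. The difference of −0.999 points became 0.134 points without WT replicate 1. Of the 8 covered CpGs within 2000 bp outside it, 7 were also under 20% in WT, but their local density kept them from being members.

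4 clusters tied with 11 low CpGs, and the one with the lowest WT mean was taken as the fifth. It lay on chromosome 10 from 68113836 to 68115591 and stood at 0.0967%, 0.567% and 1.04% in WT replicates 1 to 3. In Chd8+/- replicates 1 to 3 it stood at 0%, 0% and 0.0208%, below every WT sample, a difference of −0.563 points. The unconverted share outside CpGs was higher in Chd8+/- than in WT, the opposite direction to the levels here, and its part was not tested. Without WT replicate 3 the difference was −0.325 points. All 19 covered CpGs inside and all 25 within 2000 bp outside were under 20% in WT, and the density reached 16 within 4000 bp. This cluster thus lay in a wider unmethylated stretch, part of which is CpG-richer than the rule allows for members. The 3 other clusters of 11 low CpGs differed in level. On chromosome 13 from 21343429 to 21344965 the WT mean was 0.906% and the Chd8+/- mean 0.137%. On chromosome 9 from 98844528 to 98846637 the WT mean was 3.70%, with a difference of −0.299 points in Chd8+/-. On chromosome 10 from 45345276 to 45347009 the means were 9.46% in WT and 11.02% in Chd8+/-. At all 3 the samples of the genotypes overlapped. Over the 492 clusters of 5 or more, 114 had a CpG of density over 10 within 4000 bp. All 3 Chd8+/- samples lay below all 3 WT samples at 16 of the 492, and above them at 34. The WT levels chose the members, so nothing is read from these counts.

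**Figure D4:**
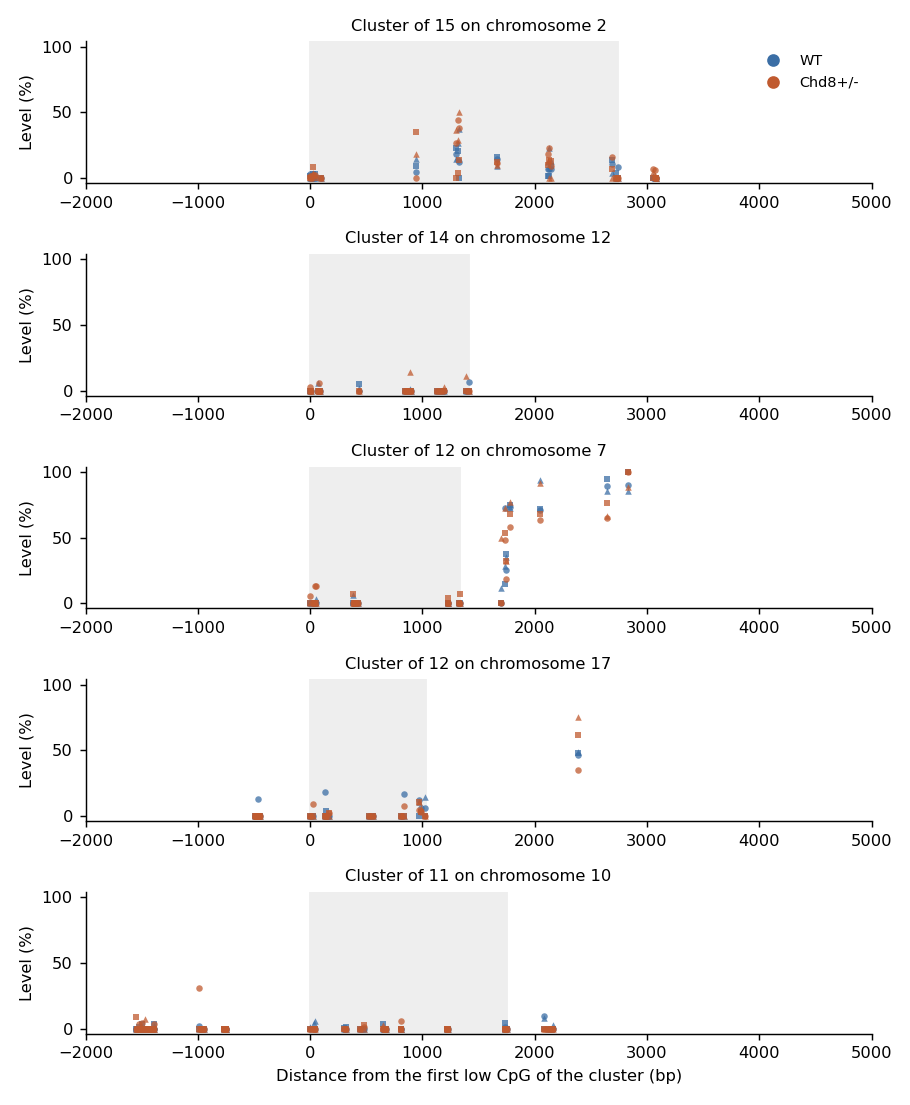
Methylation level (%) of every covered CpG in and within 2000 bp of the 5 clusters with the most low CpGs (of 4 tied at 11, the one lowest in WT), against the distance (bp) from the first low CpG, with WT in blue, Chd8+/- in orange and circle, square and triangle for replicates 1, 2 and 3. Grey marks the cluster; on chromosome 7 the level climbs within 2000 bp to the right, to a mean of 58.5% in WT, while on chromosome 10 the flanks stay low.

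Low CpGs were found along all 19 autosomes in similar shares. The share of sparse distal CpGs that were low ran from 8.09% on chromosome 16 to 11.8% on chromosome 13. Of 2411 regions of 1 Mb with a sparse distal CpG, 2038 (84.5%) held at least 1 low CpG, with a median of 7. Among the 1773 regions with at least 50 sparse distal CpGs the median share was 9.34%.

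A stretch of chromosome 13 stood far above that median. From 23000001 to 24000000, 90 of 151 sparse distal CpGs (59.6%) were low, from 21000001 to 22000000 83 of 148 (56.1%), and from 22000001 to 23000000 36 of 87 (41.4%). On chromosome 1 from 19000001 to 20000000 the share was 33 of 58 (56.9%), and on chromosome 10 from 81000001 to 82000000 it was 24 of 63 (38.1%). These regions were picked for their shares, and CpGs of a cluster share fragments, so no test was made.

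Local CpG density and the distance to denser CpGs graded the share that was low, even within these narrow limits. It was 7.09% where no other CpG was listed within 250 bp, and 8.47%, 9.86%, 11.9% and 14.1% for 2, 3, 4 and 5 listed CpGs. The order was the same in each of the 6 samples when the share under 20% was taken per sample. From 4000 to 10000 bp from a CpG of density over 20 the share was 13.3%, from 20000 to 200000 bp it was between 10.2% and 10.8%, and beyond 200000 bp it was 7.71%.

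Low CpGs were most frequent beside CpGs of density over 10, a CpG richness below that of the dense class. Within 1000 bp of such a CpG, 2242 of 5570 sparse distal CpGs (40.3%) were low, from there to 4000 bp 17.3%, and beyond 20000 bp 8.78%. The low CpGs were thus a mixture: 8.87% lay within 1000 bp of a CpG of density over 10, while 14881 lay more than 20000 bp from any.

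The choice by WT levels makes the genotype difference of the low CpGs misleading by itself. Over the 25270 low CpGs the mean level was 7.97%, 7.94% and 7.72% in WT replicates 1 to 3 and 11.1%, 11.5% and 12.3% in Chd8+/- replicates 1 to 3. The Chd8+/- mean of 11.6% ± 0.591 was 3.75 points above the WT mean of 7.88% ± 0.139 (SD, n = 3). A CpG is picked partly because chance made it low in the samples that picked it, and any other sample then lies higher, which is regression to the mean. When the Chd8+/- samples chose the CpGs instead, the sign turned: 23326 CpGs were kept and Chd8+/- was 1.96 points below WT, at 7.72% against 9.68%. Of these, 20013 were low CpGs by both choices, and there the genotypes stood at 6.44% in WT and 6.76% in Chd8+/-.

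To set samples side by side whose levels had no part in the choice, CpGs were chosen on 2 WT samples and the third WT sample was held out. The held-out WT sample stood at 11.27%, 11.20% and 10.95% for replicates 1, 2 and 3, that is 3.64 points on average above the samples that chose. On the same CpGs the Chd8+/- replicates 1, 2 and 3 averaged 11.9%, 12.4% and 13.2% over the 3 choices. Each of them lay above the held-out WT sample in each of the 3 choices. The mean difference that was left was 1.34 points, in place of 3.75.

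The mirror image gave the same direction. With CpGs chosen on 2 Chd8+/- samples, the held-out Chd8+/- replicate 1, 2 or 3 stood at 11.3%, 11.7% and 13.1%, and the 3 WT samples averaged 10.6%, 10.5% and 11.2% on the same CpGs. The held-out Chd8+/- sample lay above all 3 WT samples each time, by 0.741, 1.14 and 1.86 points. Chd8+/- replicate 3 was the highest of the Chd8+/- samples in every choice by WT, and without it the difference with held-out WT samples was 0.993 points. The choices share samples and 1 held-out sample against 3 is too few for a test, so these values stand as descriptions.

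**Figure D5:**
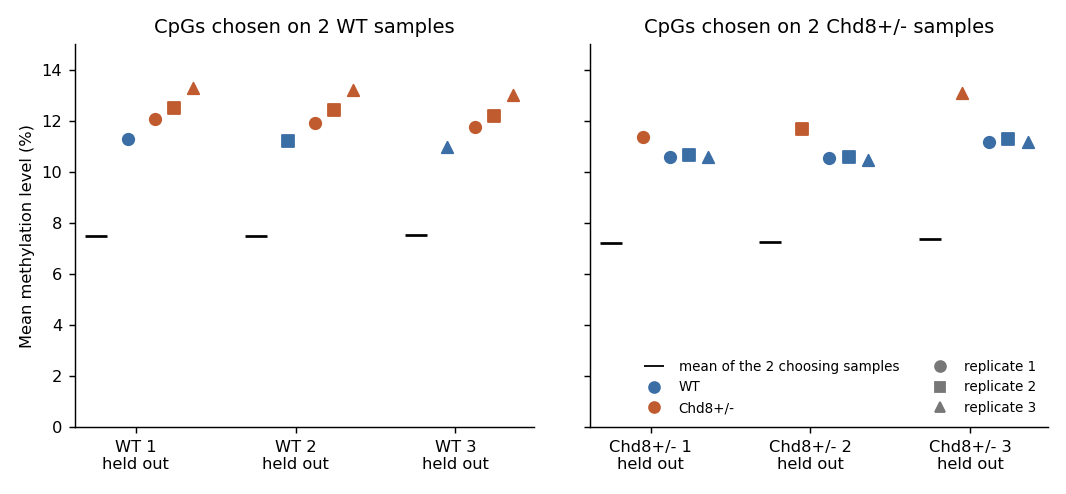
Mean methylation level (%) of CpGs chosen as under 20% on 2 WT samples (left) or on 2 Chd8+/- samples (right), for each held-out sample; black bars are the mean of the samples that chose, blue WT, orange Chd8+/-. On both sides the samples that did not choose lie over 3 points above the bar, and the Chd8+/- points lie above the WT points of the same choice.

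The difference that was left grew with the level of the CpGs among the low CpGs. Where both choosing WT samples read 0%, the held-out WT sample averaged 3.68% and Chd8+/- replicates 1 to 3 averaged 4.16%, 4.06% and 4.27%. Where they averaged 10% to 20%, the values were 18.4% against 19.4%, 20.2% and 21.6%. For the other sparse distal CpGs the held-out WT sample and the Chd8+/- mean stood at 39.2% and 41.6% where the choosing mean was 20% to 50%, at 71.1% and 72.2% for 50% to 80%, and at 89.9% and 90.3% for 80% or above. Whether the low CpGs differ from these classes in this was not tested.

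Coverage moved with genotype, and the same values were taken by classes of the median WT reads. These classes do not make the depth of the genotypes equal, so the part of depth in the difference was not tested. Among low CpGs with a median of 10 to 19 reads in WT the Chd8+/- mean was 7.31 points above WT, and among those with 80 or more reads 2.11 points. With held-out WT samples the difference was 1.32, 1.38, 1.43 and 1.16 points for 10 to 19, 20 to 39, 40 to 79, and 80 or more reads. The unconverted share at cytosines outside CpGs also moved with genotype, at 0.316% to 0.321% in WT and 0.327% to 0.348% in Chd8+/-, and its part in the difference was not tested.

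A count that uses no level for its choice was tested instead. Each of the 247380 sparse distal CpGs was thinned to 10 reads per sample, and the share expected to show at most 1 methylated read, that is under 20%, was computed. It was 10.1%, 10.1% and 10.2% in WT replicates 1 to 3 and 10.01%, 9.92% and 9.24% in Chd8+/- replicates 1 to 3. The Chd8+/- samples lay below every WT sample, and the difference was −0.403 points with a standard error of 0.247. By an exact permutation test, two-sided, p was 0.1, which is as low as 3 samples against 3 can reach, so this design cannot pass 0.05. Most of the difference came from Chd8+/- replicate 3, without which it was −0.162 points.

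With all reads the shares under 20% were 10.96%, 11.003% and 11.08% in WT and 10.86%, 10.67% and 9.95% in Chd8+/- (exact permutation p = 0.1). A stricter count showed a smaller difference: the share with no methylated read of 10 was 6.84% in WT and 6.79% in Chd8+/- (exact permutation p = 0.9). The mean level of all sparse distal CpGs averaged 71.8% ± 0.0689 over WT samples and 72.7% ± 0.938 over Chd8+/- samples (SD, n = 3). Chd8+/- was 0.856 points higher (exact permutation p = 0.1), and 0.324 points higher without Chd8+/- replicate 3.

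No single low CpG passed the test between the genotypes. Reads were tested with edgeR's quasi-likelihood test over all 418119 autosomal CpGs that were not 0% or 100% in every sample. That set held 22775 low CpGs, since the 2495 at 0% in all 6 samples have nothing to test. At an adjusted p of 0.05 it called 0 low CpGs, as 0 (0%) of all CpGs, and limma also called 0 (0%). At an unadjusted edgeR p under 0.05, 562 low CpGs (2.47%) were higher and 295 (1.30%) lower in Chd8+/-, beside 2.09% and 1.5% of all CpGs tested. With limma the split was more uneven: 1341 low CpGs (5.89%) were higher and 197 (0.865%) lower, beside 3% and 2.17% of all CpGs tested. The genotypes did not overlap at 1637 low CpGs with Chd8+/- above (6.48%) and 498 with it below (1.97%), beside 3.48% and 2.32% of all covered CpGs. The WT samples of this contrast chose the low CpGs, so nothing is read from these shares.

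Windows of 1000 bp gave no call either. Of 2472 windows with 3 or more low CpGs, 2426 could be tested, and 0 passed an adjusted p of 0.05 with edgeR or limma, as 0 (0%) of 68160 windows. Without adjustment, 83 (3.42%) were higher and 39 (1.61%) lower in Chd8+/- at an edgeR p under 0.05, beside 2.08% and 1.68% of all windows. With limma 119 (4.91%) were higher and 38 (1.57%) lower, beside 3.2% and 2% of all windows. The window with the smallest p lay on chromosome 5 from 111542001 to 111543000, with 4 low CpGs and 257 to 389 reads per sample. It stood at 0.845%, 1.04% and 0.885% in WT replicates 1 to 3 and at 13.6%, 5.34% and 8.95% in Chd8+/- replicates 1 to 3, with no overlap (edgeR adjusted p = 1.00). A window on chromosome 11 from 96230001 to 96231000 stood at 0% in every WT sample and at 5.02%, 4.27% and 3.21% in Chd8+/- replicates 1 to 3 (edgeR adjusted p = 1.00). A window on chromosome 5 from 38637001 to 38638000 stood at 0.535%, 0% and 0% in WT and at 17.2%, 7.41% and 17.2% in Chd8+/- (edgeR adjusted p = 1.00). All 3 were picked by their p among windows whose WT levels were low by choice.

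The 3 low CpGs with the smallest edgeR p were all at 0% in every WT sample. At position 24025622 of chromosome 7 the Chd8+/- replicates 1 to 3 stood at 1.47%, 0.389% and 6.21%, from 257 to 461 reads per sample (edgeR adjusted p = 0.797). At position 94377892 of chromosome 6 they stood at 6.03%, 8.14% and 10.9%, from 86 to 174 reads (edgeR adjusted p = 0.984). At position 60421023 of chromosome 3 they stood at 16.4%, 7.41% and 16.2%, from 54 to 148 reads (edgeR adjusted p = 1.00). The groups did not overlap at these sites, which were picked by their p.

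The 3 low CpGs with the largest difference varied widely between WT samples. At position 40469643 of chromosome 9, with 11 to 23 reads per sample and no other CpG listed within 250 bp, WT replicates 1 to 3 stood at 23.5%, 28.6% and 0% and all 3 Chd8+/- samples at 100%. At position 100653438 of chromosome 3 the values were 16.4%, 0% and 28.6% in WT against 100%, 95.2% and 57.9% in Chd8+/-, from 19 to 61 reads. At position 112381306 of chromosome 7 they were 22.7%, 0% and 0% against 100%, 41.7% and 85.7%, from 12 to 40 reads. None passed the test (edgeR adjusted p = 1.00 at each). The 46 low CpGs at 50% or above in all 3 Chd8+/- samples make up 0.182% of the total.

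The few CpGs named at the limit of 20% varied widely between samples, and they do not stand for all CpGs near it. The 3 low CpGs just inside had WT SDs of 9.49, 15.2 and 14.8 points and Chd8+/- means of 38.5%, 53.4% and 16.6%. The 3 sparse distal CpGs just outside all had a WT mean of exactly 20%, with 10 to 32 reads per sample. Their WT SDs were 34.6, 34.6 and 20 points and their Chd8+/- means 13.3%, 13.7% and 8.33%.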

How the data were processed

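Trimming and alignment tools are listed, per the submitters' processing notes, as SAMtools 1.9, Bismark 0.20.0 and Trim Galore 0.4.4, with build mm39. Their settings and any removal of duplicates are not given in the sources used here. Coverage was deposited as a count of reads per CpG cytosine (10 or more), and methylation as percent, per the file headers. Methylated reads were coverage times percent, rounded. Conversion rates came from the authors' deposited statistics. Strands were merged by adding reads. Low CpGs, lists and tests were chosen with earlier results of these data known. Named sites were the 5 clusters with the most low CpGs (ties broken by the lower WT mean), the 3 low CpGs each with the smallest edgeR p, the largest difference and the nearest to the limit on either side, and the 3 windows with the smallest p, the last added later. Means were unweighted over CpGs. edgeR 4.0.16 (quasi-likelihood, Benjamini-Hochberg, coverage term per sample) and limma 3.58.1 on log2 of methylated plus 1 over unmethylated plus 1 reads were run in R 4.3.3 and tested on simulated data. Windows were fixed at 1000 bp with at least 3 CpGs. The rest used scipy 1.17.1, pandas 2.3.3, matplotlib 3.10.9 and numpy 2.4.6 under Python 3.11.15. The gene and sequence tables at hand follow another build, so genes, promoters and sequences were not used here.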

Additional observations from a re-analysis of the deposited data

How the results depend on the processing

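The number of low CpGs was 15385 at a minimum of 20 reads and 15620 under a limit of 10%, and 25270 to 25779 when samples were left out. The difference of 3.75 points at low CpGs was 2.93 points at 20 reads, 2.84 points weighted by reads, 0.740 points when all 6 samples chose, −1.96 points when Chd8+/- chose, and 3.43 to 5.11 points over left-out samples. The held-out difference of 1.34 points was 1.30 at 20 reads, 0.910 under 10%, 1.61 under 30%, 1.40 over 10000 bp from dense CpGs, 1.27 with density from CpGs listed in 2 or more files, 1.25 in the mirrored choice (added after the data were seen), and 0.993 to 1.62 without a Chd8+/- sample. Of the 5 named clusters, the difference went from −0.0503 to 0.935 points on chromosome 12 and from −2.04 to 0.134 points on chromosome 17 over left-out samples. The causes of these differences were not tested. The reversed choice lowers the samples that chose by construction, so it is no test of a cause. edgeR called 0 CpGs and 0 windows under every alternative run, with lowest adjusted p of 0.0546 and 0.971. The share under 20% ran from −0.546 to −0.0472 points and the mean level from 0.324 to 1.31 points over their 14 and 13 alternatives. Deviations of samples with the same replicate number correlated at 0.00525, 0.00141 and 0.00270, and those with different numbers at −0.00797 to 0.00515. Values this small cannot tell whether the numbers mark pairs, and replicate 3 of both genotypes stood apart on chromosome X. The main tests took no pairs. With the replicate number as a block, these differences of −0.403 and 0.856 points gave p = 0.25 in an exact permutation test within pairs, as low as 3 pairs can reach, and edgeR called 0 CpGs and 0 windows. Depth limits single sites: a level under 20% at 10 reads means at most 1 methylated read.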

Other observations

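On chromosome X, which the choice of low CpGs left out, 4316 CpGs were sparse and distal by the same rule and covered in all 6 samples. The share under 20% was 11.98% and 11.79% in WT replicates 1 and 2 and 11.84% and 12.025% in Chd8+/- replicates 1 and 2, but 3.89% and 3.13% in replicate 3 of WT and of Chd8+/-. The 392 X-linked CpGs with a WT mean under 20% stood at 2.81% and 3.07% in WT replicates 1 and 2, 4.89% and 4.52% in Chd8+/- replicates 1 and 2, and 24.3% and 32.0% in replicate 3 of WT and of Chd8+/-. The labels give no sex.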
